A study of Danio rerio with 12 samples.

Results

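The comparison described here is between zebrafish larvae that carry mutations in both yap and taz and larvae that carry the yap mutation alone, and it asks what the loss of taz adds when yap is already lost. It uses the 4 yap taz mutant libraries (yap-/-;taz-/-) and the 4 yap mutant libraries (yap-/-) of a series of 12, chosen by their sample titles. The other 4 libraries are wild type (WT), and their values are given beside the mutants' for orientation. Every library is polyadenylated RNA of larvae at 3 days post-fertilization (dpf). The yap mutation is shared by both groups compared, so the labelled difference between them is the taz mutation. The larvae of these samples include none with the taz mutation alone, so whether taz loss would have the same effect with yap intact was not measured. The sources used here do not say what kind of lesion each gene carries or how many larvae were pooled in a library.

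Yap and Taz are related transcriptional co-activators at the end of the Hippo pathway. The kinases Lats1 and Lats2 phosphorylate them and keep them out of the nucleus, and where this restraint is lifted they bind Tead proteins on DNA and raise the transcription of genes such as ccn1, ccn2, ankrd1 and amotl2. In zebrafish both are known for parts in the elongation of the body, in the heart and in the eye, where yap is needed to make the retinal pigment epithelium.

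Of 19493 genes with enough reads to be tested, 374 were higher and 440 lower in the yap taz mutant than in the yap mutant at an adjusted p under 0.05, which is 4.18% of those tested, or 1.92% higher and 2.26% lower. Where no other method is named, adjusted p-values are from edgeR's quasi-likelihood test, with Benjamini-Hochberg adjustment over all genes tested. The median log2 fold change over all genes was -0.000956. Of the 814 called genes, 79 were at least 2-fold higher and 134 at least 2-fold lower. In 748 of the 814 the 4 libraries of one genotype did not overlap with the 4 of the other, as in 2107 (10.8%) of the 19493 genes tested. The call and the overlap rest on the same libraries, so the lack of overlap is no separate support for the calls. Gene lists in which members fell and none rose included smooth muscle, heart, collagens, lens, retinal pigment epithelium, pigment cells and the exocrine pancreas. Lists in which members rose and none fell included macrophages, inflammatory cytokines, the p53 response and lysosomes. The summed level of the members overlapped between the mutants for heart, collagens, lens, pigment cells, the exocrine pancreas and macrophages. For smooth muscle the ranges met. They were apart for the retinal pigment epithelium, inflammatory cytokines, the p53 response and lysosomes.

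**Figure D1:**
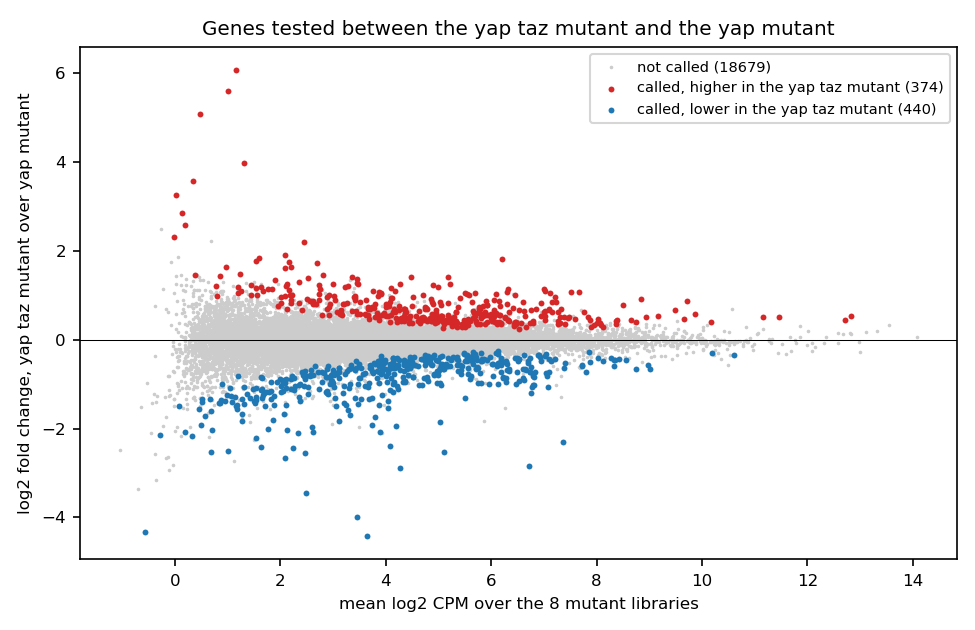
Each point is 1 of the 19493 genes tested, with its mean log2 CPM (counts scaled to a total of 1000000 per library) over the 8 mutant libraries on the x axis and its log2 fold change, yap taz mutant over yap mutant, on the y axis. Red points are the 374 genes called higher and blue points the 440 called lower at an adjusted p under 0.05. Called genes of both directions are found from low to high levels.

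Levels are given as CPM, scaled by library size and by a TMM factor (trimmed mean of M values), and fold changes as log2 of the yap taz mutant over the yap mutant ± SE. Total counts were 7028251 to 8657381 per library. Along the first principal component of the 8 mutant libraries, which held 34.8% of the variance, the yap taz mutant libraries lay close together at 19.5 to 24.8. The yap mutant libraries were spread from -34.9 to -3.36, with yap mutant 4 nearest to the yap taz mutant. Without yap mutant 4 the test called 1087 genes, and it called 468 without yap mutant 2, 538 without yap mutant 3, 441 without yap taz mutant 2 and 497 without yap taz mutant 4. Against a minimum fold of 1.5 in place of any difference, 22 genes were called (11 higher, 11 lower). Where leaving out a library or changing the scaling, the filter, the libraries fitted or the tool ended the call of a gene named here, or moved a list's count of at least 3 by over 1.5 times, that is given beside it. List counts of under 3, those of 0 included, often moved by 1 or 2 genes under the same changes, and their range is given where it reached 3. For these ranges the changes tried leave out a block for the replicate number and the minimum fold, which also moved list counts. Mutants of both kinds expressed defining markers of the larval organs, among them krt4 of the epidermis at 5968 to 11124 CPM over the 8 libraries, hbae3 of red cells at 552 to 803 CPM and the liver gene fabp10a at 27.7 to 73.7 CPM. The krt4 and hbae3 ranges overlapped with WT, whereas every mutant library was below WT for fabp10a (104 to 185 CPM in WT). In RNA of whole larvae, fewer cells of a type and less RNA per cell cannot be told apart.

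The targeted gene came first. WWTR1 (ENSDARG00000067719), which encodes Taz, was at 11.3, 9.51, 9.22 and 11.4 CPM in yap mutant libraries 1 to 4 and at 4.48, 5.39, 5.77 and 6.61 CPM in yap taz mutant libraries 1 to 4, a log2 fold change of -0.90 ± 0.17 (adjusted p = 0.00673). All 4 yap taz mutant libraries lay below all 4 yap mutant libraries, and their range overlapped with that of WT, 5.40 to 8.34 CPM. Taz RNA was therefore still detected in larvae labelled as taz mutant, at a level lower than in the yap mutant. YAP1 (ENSDARG00000068401), which encodes Yap, stood at 51.7 to 69.8 CPM in the yap mutant and 64.6 to 73.1 CPM in the yap taz mutant, and the difference of 0.22 ± 0.095 did not pass the test (adjusted p = 0.219). Of 38 tested genes of the Hippo pathway list, among them the Lats, Mob1, Sav1 and Tead genes, 2 were called lower and 0 higher (5.26%), with a list median of -0.0211. They were WWTR1 itself and AMOTL2.

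Of 46 genes listed as direct or commonly used YAP/TAZ targets, 3 were higher and 4 lower (15.2% called), and the median of -0.00596 was near that of all genes. The higher count was 1 without yap mutant library 2 or 3 or yap taz mutant library 2, 5 with the 8 mutant libraries alone or with limma-voom and 6 without yap mutant library 4, and the lower count was 2 without yap mutant library 4 or yap taz mutant library 1, 2 or 4. ANKRD1 (ENSDARG00000076192), a nuclear ankyrin-repeat protein of muscle and heart, fell the most of them, from 23.4, 47.5, 54 and 21.4 CPM in the yap mutant libraries to 8.35, 9.20, 10.5 and 10.3 CPM in the yap taz mutant libraries (log2 fold change -1.94 ± 0.26, adjusted p = 0.000901). Its yap mutant libraries divided into a lower pair, 1 and 4, and a higher pair, 2 and 3, and both pairs were above all of the double mutants. WT libraries held 53.6 to 70.1 CPM. The second gene with the same symbol (ENSDARG00000075263) did not pass the test (-0.024 ± 0.23, adjusted p = 0.972).

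col4a3 (ENSDARG00000003395), a basement membrane collagen chain, was at 8.20, 6.21, 7.30 and 6.61 CPM and 3.39, 2.37, 5.47 and 2.83 CPM in the same order of libraries (-1.02 ± 0.21, adjusted p = 0.0118). All of its double mutant values were lower than the lowest yap mutant value. AMOTL2 (ENSDARG00000061923), an angiomotin that binds Yap, went from 111, 91.9, 96.4 and 130.3 CPM to 75.8, 80.3, 91.1 and 70.1 CPM (-0.44 ± 0.10, adjusted p = 0.0259), and its double mutant range met that of WT, 77.4 to 82.3 CPM. The call on AMOTL2 was lost without yap mutant library 1 or 4 or yap taz mutant library 1, 2 or 4 (adjusted p = 0.0518 to 0.0849). Its paralogue amotl2b (ENSDARG00000061948) was at 46.3 to 79 CPM in the yap mutant and 65.5 to 75.2 CPM in the yap taz mutant, against 25.9 to 32.7 CPM in WT, and did not pass the test between the mutants (0.26 ± 0.12, adjusted p = 0.272), although it did without yap mutant 4 (adjusted p = 0.0208). The last of the 4 lower targets was CDC42EP3 (ENSDARG00000052783), an effector of the small GTPase Cdc42 (-0.42 ± 0.11, adjusted p = 0.042). The call on CDC42EP3 was lost without WT library 1 or 3, yap mutant library 2, 3 or 4 or yap taz mutant library 1, 2 or 4 (adjusted p = 0.0529 to 0.135).

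Of the targets that were higher, CCN2 already stood above WT in every yap mutant library. CCN2 (ENSDARG00000042934), the connective tissue growth factor often used to read Yap activity, was at 101, 109, 103 and 94.9 CPM in WT, 167, 149, 139 and 200 CPM in the yap mutant and 191, 229, 251 and 239.7 CPM in the yap taz mutant (0.47 ± 0.11, adjusted p = 0.0198). Yap mutant 4, its highest library of that genotype, lay above yap taz mutant 1, so that the mutants overlapped. The call on CCN2 was lost without yap mutant library 2 or 3 or yap taz mutant library 2, 3 or 4 (adjusted p = 0.0556 to 0.07). GADD45B (ENSDARG00000013576), a stress-inducible gene that is also in the p53 list, read 14.3, 11.8, 8.71 and 15.6 CPM in the yap mutant libraries and 21.9, 21.9, 21.6 and 25 CPM in those of the yap taz mutant (0.84 ± 0.17, adjusted p = 0.0117), with no overlap between the mutants. The 3 genes of the ccn1 family did not pass the test, with 0.30 ± 0.15 for CCN1 (adjusted p = 0.319), 0.48 ± 0.19 for ccn1l1 (adjusted p = 0.187) and 0.35 ± 0.13 for ccn1l2 (adjusted p = 0.135).

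Several contractile genes of smooth muscle were lower. Of 18 smooth muscle genes tested, 5 fell and 0 rose (27.8% called), with a list median of -0.231, and the fallen count was 3 without yap mutant library 2 or yap taz mutant library 1 or 4. MYH11 (ENSDARG00000009782), the smooth muscle myosin heavy chain, was at 69.1, 80.9, 67.5 and 68.7 CPM in yap mutant libraries 1 to 4 and 21.9, 31.8, 35 and 26.1 CPM in yap taz mutant libraries 1 to 4, a log2 fold change of -1.32 ± 0.12 (adjusted p = 3.91e-05). The yap mutant values lay under those of WT, 93.6 to 100.2 CPM, and the double mutant values lay far under both. It is 1 of the 22 genes that passed the test against a fold of 1.5. acta2 (ENSDARG00000045180), smooth muscle actin, was at 223, 313, 272 and 202 CPM in WT, 104, 151, 142 and 112 CPM in the yap mutant and 49.9, 70.05, 85.3 and 52.4 CPM in the yap taz mutant (-0.99 ± 0.17, adjusted p = 0.00434). The 3 genotypes formed 3 separate ranges. CNN1 (ENSDARG00000102398), the thin-filament protein calponin, dropped from 4.07 to 7.10 CPM to 1.48 to 2.89 CPM (-1.47 ± 0.25, adjusted p = 0.00388). The remaining fallen members were TAGLN (ENSDARG00000045408), transgelin (-0.66 ± 0.16, adjusted p = 0.0294), and MYLK (ENSDARG00000004753), the myosin light chain kinase (-0.72 ± 0.17, adjusted p = 0.0267). The call on TAGLN was lost without yap mutant library 2 or 3 or yap taz mutant library 1, 3 or 4 (adjusted p = 0.0632 to 0.0896). The call on MYLK was lost without yap mutant library 1 or 2 or yap taz mutant library 1, 2 or 4 (adjusted p = 0.0624 to 0.0829).

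In the heart list 5 of 30 genes fell and 0 rose (16.7% called, median -0.215), a fallen count that was 1 without yap mutant library 2 or yap taz mutant library 4, 2 without yap taz mutant library 1 and 3 without yap mutant library 1 or yap taz mutant library 3. MYL7 (ENSDARG00000019096), the myosin light chain that marks the myocardium, stood at 30.6, 33.7, 35 and 28.4 CPM in WT and 33.8, 27.8, 26.5 and 23.5 CPM in the yap mutant, and at 10.8, 15.5, 13.2 and 18.2 CPM in the yap taz mutant (-0.95 ± 0.15, adjusted p = 0.00196). WT and yap mutant overlapped, and every double mutant library was below both. MYH6 (ENSDARG00000079564), a myosin heavy chain of the heart, was at 76.9 to 107 CPM and 42.4 to 76.7 CPM in the 2 mutants (-0.72 ± 0.16, adjusted p = 0.0147), ranges that adjoin at yap mutant 3 and yap taz mutant 3. The call on MYH6 was lost without yap mutant library 2 or yap taz mutant library 4 (adjusted p = 0.0523 to 0.0564). nppa (ENSDARG00000052960), the atrial natriuretic peptide gene, was at 7.90 to 11.6 CPM in WT, 15.9 to 21 CPM in the yap mutant and 8.57 to 14.9 CPM in the yap taz mutant (-0.71 ± 0.17, adjusted p = 0.0258). The call on nppa was lost without yap mutant library 2 or yap taz mutant library 1, 3 or 4 (adjusted p = 0.0509 to 0.0826).

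Skeletal muscle genes moved both ways, with 3 of 88 higher and 8 lower (12.5% called, median -0.0409). The higher count was 1 without yap taz mutant library 2, 5 without WT library 1 or yap taz mutant library 1 or with the 8 mutant libraries alone and 7 with DESeq2. The lower count was 3 without yap mutant library 2 or yap taz mutant library 1 or 4 and 5 without yap mutant library 1 or yap taz mutant library 2. ckma (ENSDARG00000035327), a muscle creatine kinase, was at 3496, 4046, 4201 and 3885 CPM in WT, 5591, 5558, 6386 and 6669 CPM in the yap mutant and 7242, 9738, 8872 and 9274 CPM in the yap taz mutant (0.54 ± 0.096, adjusted p = 0.00479). The ranges of the 3 genotypes did not overlap and lay in that order. ckmb (ENSDARG00000040565), its paralogue, rose by 0.44 ± 0.095 (adjusted p = 0.0147). The call on ckmb was lost without yap mutant library 2 or yap taz mutant library 2 (adjusted p = 0.0556 to 0.056). In the other direction tnnc2.1 (ENSDARG00000095002), a fast troponin C, was at 13, 16.5, 18.6 and 13 CPM and then 7.38, 7.10, 8.72 and 7.56 CPM (-0.99 ± 0.15, adjusted p = 0.00144), below the 26.8 to 34.2 CPM of WT in both mutants. DES (ENSDARG00000005221), a gene for the intermediate filament desmin, fell from 7.08 to 10.1 CPM to 0.968 to 3.29 CPM (-2.03 ± 0.45, adjusted p = 0.0167). The call on DES was lost without yap taz mutant library 1 or 4 or with limma-voom (adjusted p = 0.0505 to 0.0558). MYBPC1 (ENSDARG00000045560), slow myosin-binding protein C, changed by -0.93 ± 0.20 (adjusted p = 0.0157), and TNNT1 (ENSDARG00000037954), slow troponin T, by -0.75 ± 0.16 (adjusted p = 0.0159). The call on MYBPC1 was lost without yap mutant library 2 or yap taz mutant library 2 or 4 (adjusted p = 0.0549 to 0.0616). The call on TNNT1 was lost without yap taz mutant library 4 (adjusted p = 0.055).

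**Figure D2:**
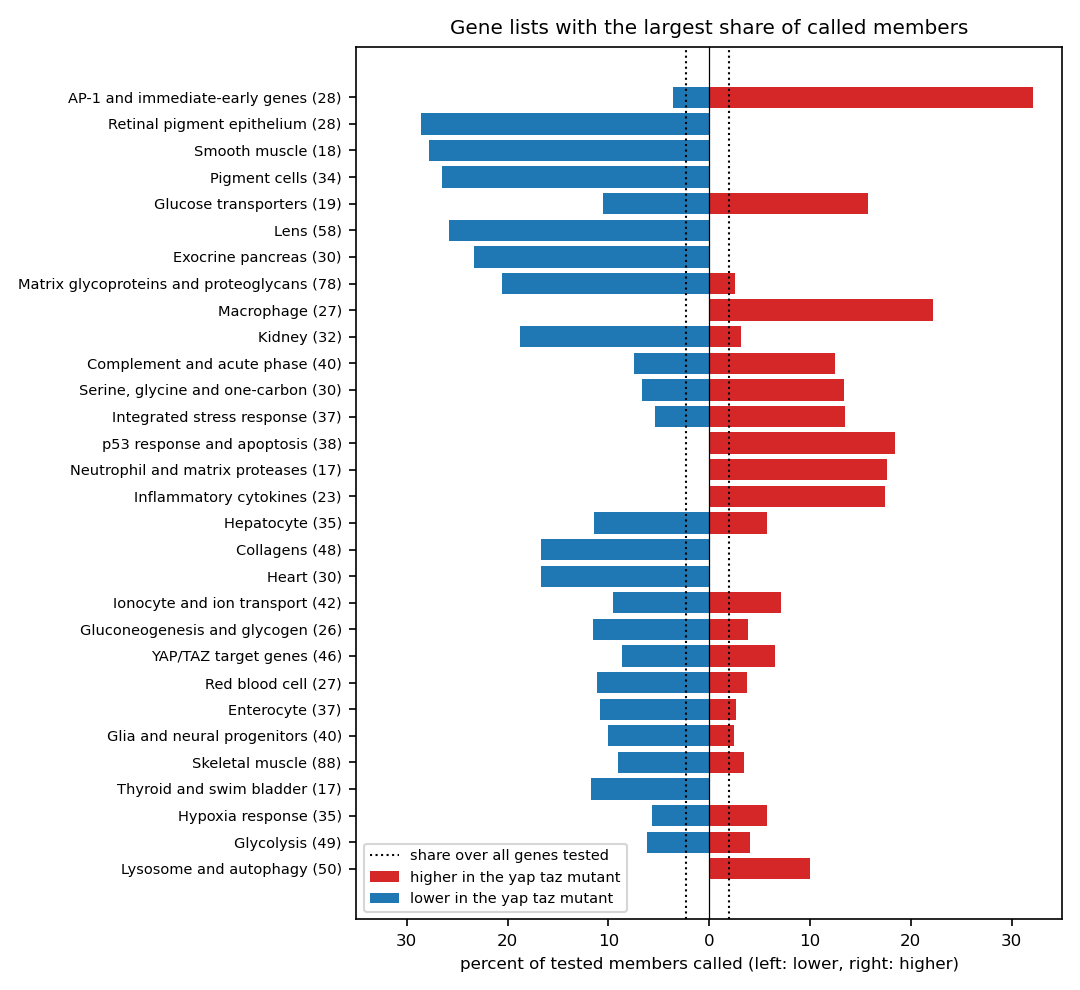
Bars give the percent of tested members called higher (right, red) or lower (left, blue) in the yap taz mutant for the 30 lists of at least 15 tested genes with the largest share called, and the number after each name is how many were tested. Dotted lines mark the share over all genes tested, 1.92% higher and 2.26% lower. Retinal pigment epithelium, smooth muscle, pigment cells and lens lie wholly on the lower side, and the macrophage and p53 lists wholly on the higher side.

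The extracellular matrix genes that were called were mostly lower. Among 78 matrix glycoprotein and proteoglycan genes 16 fell and 2 rose (23.1% called, median -0.203), and among 48 collagens 8 fell and 0 rose (16.7% called, median -0.236). The collagen count was 5 without yap taz mutant library 2 and 16 without yap taz mutant library 3. The count of matrix glycoprotein and proteoglycan genes that rose was 0 to 3 over the changes tried, reaching 3 without yap mutant library 4, with the 8 mutant libraries alone or with DESeq2. vcanb (ENSDARG00000009401), a versican proteoglycan, was at 90.1, 94.8, 119 and 91.3 CPM in the yap mutant libraries and at 52.2, 46.1, 55 and 46.4 CPM in the yap taz mutant libraries (-0.98 ± 0.11, adjusted p = 0.000296). Yap mutant 3 was the highest of its group, and no double mutant library came near the 96.2 to 135 CPM of WT. The other versican gene went the opposite way. vcana (ENSDARG00000103515) was at 3.68 to 5.47 CPM in the yap mutant and 6.97 to 8.43 CPM in the yap taz mutant (0.80 ± 0.18, adjusted p = 0.0194). The call on vcana was lost without yap mutant library 2 or 3 or yap taz mutant library 3 or 4 (adjusted p = 0.0527 to 0.0693). THBS4 (ENSDARG00000020072), a thrombospondin of tendon and muscle attachments, read 174, 156, 162 and 191 CPM and then 99.3, 97.3, 112 and 102 CPM (-0.74 ± 0.082, adjusted p = 0.000217). Its yap mutant libraries were above WT (129 to 150.5 CPM) and its double mutant libraries below WT.

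Several more matrix genes fell without overlap. sparcl1 (ENSDARG00000074989), a secreted relative of osteonectin, fell from 26.5 to 34.8 CPM to 13.1 to 19.4 CPM (-0.84 ± 0.12, adjusted p = 0.00142). elnb (ENSDARG00000069017), an elastin, fell from 9.54 to 12.8 CPM to 3.24 to 7.39 CPM (-1.22 ± 0.20, adjusted p = 0.00316) and was at 18.8 to 24.9 CPM in WT, so that each genotype held a range of its own. KERA (ENSDARG00000056938), the corneal proteoglycan keratocan, was at 27, 16.2, 31.6 and 22.8 CPM and 8.47, 7.36, 10.9 and 8.64 CPM in the 2 mutants (-1.47 ± 0.30, adjusted p = 0.0118). For TNC (ENSDARG00000078362), a tenascin, the fall was -0.56 ± 0.10 (adjusted p = 0.00464). The second matrix gene to rise was CCN5 (ENSDARG00000077882), a ccn family member, with 0.85 ± 0.20 (adjusted p = 0.0209). The call on CCN5 was lost without yap mutant library 1, 2 or 3 or yap taz mutant library 2 or 4 (adjusted p = 0.0526 to 0.0764).

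Chains of collagen VI and collagen V fell by less than 1 on the log2 scale, with narrow ranges in each genotype. col6a1 (ENSDARG00000074908), a chain of the pericellular collagen VI, was at 274, 245, 258 and 248 CPM in the yap mutant and 175, 159.7, 194 and 164 CPM in the yap taz mutant (-0.57 ± 0.079, adjusted p = 0.00114), and its partner chain COL6A2 (ENSDARG00000061436) changed by -0.53 ± 0.083 (adjusted p = 0.00217). WT libraries held 291 to 341 CPM of col6a1, above both mutants. COL5A2 (ENSDARG00000031678), a chain that seeds fibrils, was at 391, 407, 396 and 401 CPM in WT, 427, 400.1, 381 and 389.8 CPM in the yap mutant and 295, 308, 302 and 272 CPM in the yap taz mutant (-0.44 ± 0.066, adjusted p = 0.0016). WT and yap mutant overlapped and the double mutant stood below both. COL4A4 (ENSDARG00000002831), a partner of col4a3 in basement membranes, changed by -1.30 ± 0.21 (adjusted p = 0.00227).

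The fin fold is stiffened by actinotrichia, fibres that contain the fish-specific actinodin proteins. In the fin and actinotrichia list 4 of 44 genes fell and 0 rose (9.09% called, median -0.0556), and 3 of the 4 were actinodin genes. and2 (ENSDARG00000079302) was at 634, 741, 645 and 597 CPM in the yap mutant and 342, 405, 477 and 439 CPM in the yap taz mutant (-0.66 ± 0.10, adjusted p = 0.00234). and3 (ENSDARG00000056873) went from 114, 113, 159.8 and 126 CPM to 78.2, 76.6, 101 and 65.6 CPM (-0.67 ± 0.14, adjusted p = 0.0125). For both genes every double mutant library was below every yap mutant library. and1 (ENSDARG00000088514) changed by -0.40 ± 0.090 (adjusted p = 0.0174). The call on and1 was lost without yap taz mutant library 2 or 4 (adjusted p = 0.0518 to 0.0641). The last was msx3 (ENSDARG00000015674), a homeobox gene (-0.69 ± 0.15, adjusted p = 0.0134). The cartilage gene ucmaa (ENSDARG00000027799), a matrix protein of chondrocytes, was low throughout and fell from 1.49 to 3.84 CPM to 0.484 to 0.887 CPM (-2.04 ± 0.33, adjusted p = 0.00263), while the cartilage and bone list as a whole had 3 of 45 lower and 0 higher (6.67% called).

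**Figure D3:**
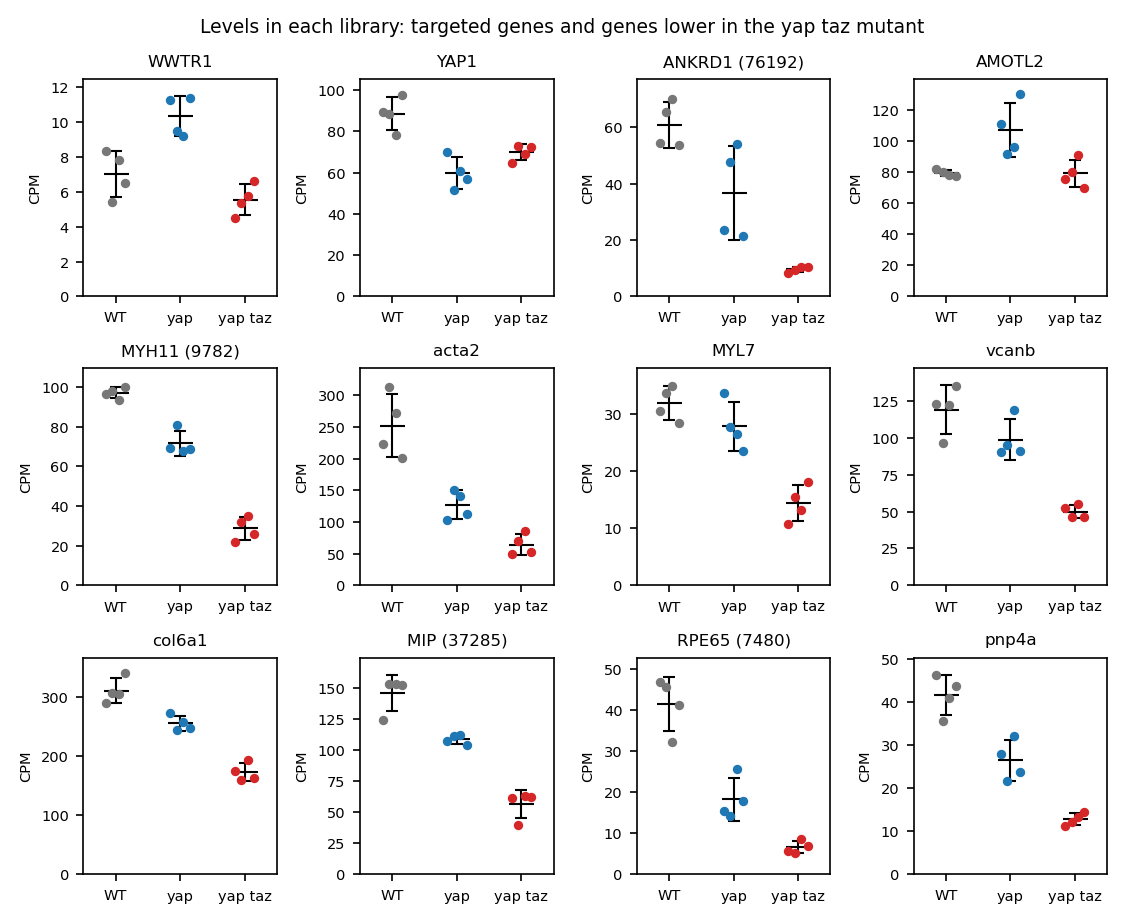
Each panel is 1 gene, with CPM on the y axis from 0, 1 point per library, and the mean ± SD of the 4 libraries of each genotype in black (WT grey, yap mutant blue, yap taz mutant red). A number after a symbol gives the last digits of the gene identifier. YAP1 is the one gene shown that was not called between the mutants. For MYH11 the yap taz mutant libraries lie between 21.9 and 35 CPM and the yap mutant libraries between 67.5 and 80.9 CPM.

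Lens genes fell in number. Of 58 tested, 15 fell and 0 rose (25.9% called, median -0.338), and the fallen count was 9 without yap taz mutant library 4. MIP (ENSDARG00000037285), one of the genes for the lens fibre water channel, was at 124, 153, 153 and 152 CPM in WT, 107, 111, 112 and 104 CPM in the yap mutant and 61.4, 39.7, 63.3 and 62.2 CPM in the yap taz mutant (-0.94 ± 0.12, adjusted p = 0.000758). The genotypes formed 3 separate ranges, and yap taz mutant 2 was the lowest library. The second gene of that name (ENSDARG00000013963) gave -0.73 ± 0.12 (adjusted p = 0.00305), again lowest in yap taz mutant 2 at 49.9 CPM. crygm2d6 (ENSDARG00000073874), a gamma crystallin of the lens, read 51.4, 57.4, 56.3 and 59.3 CPM and 33.8, 34.2, 32.4 and 31.4 CPM (-0.77 ± 0.11, adjusted p = 0.000977), and crygm2d11 (ENSDARG00000069827) of the same family changed by -1.02 ± 0.15 (adjusted p = 0.00142). These crystallins are close copies of each other, so how reads were divided among them is uncertain.

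The retinal pigment epithelium is the layer that recycles visual pigment behind the photoreceptors. Of 28 tested genes of its list, 8 fell and 0 rose (28.6% called, median -0.311). That count was 3 without yap mutant library 2, 4 without yap taz mutant library 2 and 5 without yap mutant library 3 or yap taz mutant library 3 or 4. RPE65 (ENSDARG00000007480), the isomerase of the visual cycle, was at 46.8, 45.7, 32.2 and 41.3 CPM in WT, 15.4, 14.2, 25.7 and 17.8 CPM in the yap mutant and 5.81, 5.26, 8.72 and 7.02 CPM in the yap taz mutant (-1.46 ± 0.21, adjusted p = 0.00119). The level was lower in each genotype than in the one before, with no overlap. LRAT (ENSDARG00000037278), which makes the retinyl esters that the isomerase uses, followed the same order, at 4.74 to 7.19 CPM, 2.36 to 4.18 CPM and 0.675 to 2.22 CPM (-1.49 ± 0.32 between the mutants, adjusted p = 0.0129).

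The pigment cell list, which shares members with the one before, had 9 of 34 lower and 0 higher (26.5% called, median -0.172). Melanin genes were among them. DCT (ENSDARG00000006008), the dopachrome tautomerase, was at 41.7, 42.9, 37.4 and 57.2 CPM in WT, 44.2, 29.2, 42.1 and 33.1 CPM in the yap mutant and 22, 19.3, 21.7 and 17.3 CPM in the yap taz mutant (-0.89 ± 0.15, adjusted p = 0.00362). WT and yap mutant overlapped for it, as they did for TYRP1 (ENSDARG00000056151), a melanosome enzyme, at 141 to 191 CPM and 129 to 165 CPM before 80.3 to 97.9 CPM in the yap taz mutant (-0.74 ± 0.11, adjusted p = 0.00142). pmelb (ENSDARG00000033760), a melanosome fibril protein, was at 11.3, 6.72, 14.2 and 8.14 CPM and 3.15, 2.23, 2.07 and 1.89 CPM in the mutants (-2.09 ± 0.25, adjusted p = 0.000296). Its paralogue pmela (ENSDARG00000091298) changed by -0.43 ± 0.094 (adjusted p = 0.0169). The call on pmela was lost without yap mutant library 2 or yap taz mutant library 4 (adjusted p = 0.0558 to 0.0606). The gene pnp4a (ENSDARG00000057575), a purine nucleoside phosphorylase of the reflective iridophores, was at 46.3, 35.7, 41.1 and 43.8 CPM, 28.1, 21.7, 32.3 and 23.9 CPM and 11.3, 12.2, 13.3 and 14.6 CPM over the 3 genotypes (-1.05 ± 0.13 between the mutants, adjusted p = 0.000689), with each step free of overlap.

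Photoreceptor genes did not share a direction, with 4 of 89 higher and 4 lower (8.99% called, median 0.0946). The higher count was 7 without yap mutant library 4. The rod phototransduction genes named next were lower, but they were chosen after their values were seen. GNAT1 (ENSDARG00000044199), rod transducin, was at 106, 105, 105 and 68.5 CPM in WT, 50.1, 61, 61.5 and 61.3 CPM in the yap mutant and 37.6, 36.7, 43.3 and 32.4 CPM in the yap taz mutant (-0.64 ± 0.13, adjusted p = 0.0122). WT 4 was far below the other WT libraries, and the 3 genotypes did not overlap. PDE6B (ENSDARG00000000380), a subunit of the rod phosphodiesterase, changed by -0.73 ± 0.15 (adjusted p = 0.0129). The cone transducin gene GNAT2 (ENSDARG00000042529), chosen in the same way, was not called (0.085 ± 0.15, adjusted p = 0.819). These few genes do not show whether rods and cones differed as classes, which was not tested.

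Among those that rose, CRX (ENSDARG00000043483), a transcription factor of photoreceptor precursors, was at 22.9, 18.6, 21 and 23.3 CPM and 40.7, 29.96, 35.5 and 32.9 CPM (0.70 ± 0.13, adjusted p = 0.00674), with WT at 18.4 to 28.6 CPM, a range that overlapped with the yap mutant and not with the yap taz mutant. rbp4l (ENSDARG00000044684), a retinol-binding protein gene, was at 87.7, 85.9, 81.2 and 93.8 CPM in the yap mutant and 189, 234, 173 and 169.5 CPM in the yap taz mutant (1.13 ± 0.11, adjusted p = 5.73e-05). The lowest double mutant library was far above the highest of either other genotype (74.9 to 97.2 CPM in WT). impg2b (ENSDARG00000100288), a proteoglycan of the matrix between photoreceptors, rose by 0.95 ± 0.16 (adjusted p = 0.00316), and PROM1 (ENSDARG00000034007), the outer-segment disc protein prominin, by 0.56 ± 0.10 (adjusted p = 0.00591).

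Digestive enzymes of the exocrine pancreas were lower on average, with wide spread. The summed level of their list was 612 to 3250 CPM over the yap mutant libraries. It was 693 to 1050 CPM over the double mutant libraries, so that the ranges overlapped. In 4 of the 30 tested genes the mutants did not overlap, beside 10.8% of all genes. All 30 tested genes of that list had a log2 fold change below 0 (median -1.23), 7 of them called (23.3%), and the count was 0 with limma-voom, 3 without yap mutant library 2 or 3 or yap taz mutant library 1 or 2, 4 without yap taz mutant library 3, 11 without WT library 4 or with the 8 mutant libraries alone and 13 without yap mutant library 4. ela2 (ENSDARG00000056744), an elastase, was at 80.4, 362, 221 and 80.1 CPM in WT, 51.4, 148, 61.8 and 10.04 CPM in the yap mutant and 2.66, 1.97, 3.25 and 4.86 CPM in the yap taz mutant (-4.41 ± 0.77, adjusted p = 0.00406). Within WT and within the yap mutant the libraries differed several-fold, with yap mutant 4 the lowest of its group and nearest to the double mutants. The call on ela2 was lost with limma-voom (adjusted p = 0.112). ela2l (ENSDARG00000056765), a second elastase, changed by -3.98 ± 0.74 (adjusted p = 0.00633) and amy2a (ENSDARG00000013856), a pancreatic amylase, by -3.44 ± 0.71 (adjusted p = 0.012). The call on ela2l was lost with limma-voom (adjusted p = 0.107). The call on amy2a was lost with limma-voom (adjusted p = 0.221). For amy2a yap mutant 4, at 2.16 CPM, lay inside the double mutant range of 1.09 to 3.24 CPM. prss59.1 (ENSDARG00000079274), a trypsin-like protease, was at 71.1, 152, 159 and 14.1 CPM and 11.1, 16.6, 18.3 and 22.7 CPM in the mutants, where yap mutant 4 lay inside the double mutant range (-2.53 ± 0.56, adjusted p = 0.0167). The call on prss59.1 was lost without yap mutant library 2 or 3 or yap taz mutant library 1 or 2 or with limma-voom (adjusted p = 0.0535 to 0.134). The elastases and trypsins belong to families of similar copies, which limits how surely reads were assigned to 1 of them.

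Hormone genes of the pancreas were not lower. Of 29 endocrine pancreas and gut hormone genes, 2 rose and 0 fell (6.90% called, median 0.202), and the risen count was 1 to 3 over the changes tried, reaching 3 without WT library 2 or 4 or yap mutant library 3, with RLE scaling, with upper-quartile scaling, with no filter, with the 8 mutant libraries alone or with DESeq2. GCG (ENSDARG00000040907), proglucagon, was at 8.68, 6.71, 6.73 and 6.29 CPM in WT, 20.5, 18.9, 19.8 and 24.8 CPM in the yap mutant and 39.4, 46.4, 28.8 and 43.7 CPM in the yap taz mutant (0.92 ± 0.14, adjusted p = 0.00167). The 3 genotypes lay in that order without overlap. sst1.2 (ENSDARG00000033161), a somatostatin gene, rose by 0.60 ± 0.15 (adjusted p = 0.0287). The call on sst1.2 was lost without yap mutant library 1, 2 or 4 or yap taz mutant library 2, 3 or 4 (adjusted p = 0.0525 to 0.0845). Insulin (ins, ENSDARG00000035350) was just outside the threshold (0.49 ± 0.13, adjusted p = 0.0503) and passed it under several alternatives, at adjusted p = 0.0238 with DESeq2 and 0.0475 with RLE scaling, for example.

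Enterocyte genes showed 4 of 37 lower and 1 higher (13.5% called, median -0.635), and the lower count was 2 without yap taz mutant library 2, 7 with DESeq2 and 9 without yap mutant library 4 or with the 8 mutant libraries alone. ANPEP (ENSDARG00000097285), a brush-border aminopeptidase, was at 5.09, 5.45, 5.38 and 4.96 CPM in the yap mutant and 2.18, 2.23, 1.77 and 2.02 CPM in the yap taz mutant (-1.33 ± 0.17, adjusted p = 0.000598). Both groups were narrow and well apart. The gene MELTF (ENSDARG00000075159), an iron-binding transferrin relative, fell from 15.9 to 32.3 CPM to 8.15 to 11.5 CPM (-1.23 ± 0.22, adjusted p = 0.00432). The one that rose was alpi.1 (ENSDARG00000015273), an intestinal alkaline phosphatase (0.69 ± 0.15, adjusted p = 0.0156). The call on alpi.1 was lost without yap taz mutant library 2 or 3 (adjusted p = 0.0524 to 0.0536).

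The hepatocyte list had 2 of 35 higher and 4 lower (17.1% called, median -0.0221), and the higher count was 1 to 5 over the changes tried, reaching 5 with DESeq2. Its lower members included the pancreatic amylase gene amy2a, which is also counted in the exocrine pancreas list. CYP7A1 (ENSDARG00000069018), the rate-limiting enzyme of bile acid synthesis, was at 46.8, 76.2, 52.9 and 35.3 CPM in WT, 20.2, 45.4, 33.3 and 16.9 CPM in the yap mutant and 7.26, 12.1, 10.5 and 9.99 CPM in the yap taz mutant (-1.54 ± 0.30, adjusted p = 0.0083). The lowest yap mutant library, 4, was still above the highest double mutant library, 2. In the complement and acute-phase list, of defence proteins that the liver secretes, 5 of 40 rose and 3 fell (20% called, median 0.160). FGB (ENSDARG00000008969), fibrinogen beta, was at 169 to 191 CPM in WT, 363 to 468 CPM in the yap mutant and 504 to 657 CPM in the yap taz mutant (0.50 ± 0.099, adjusted p = 0.00873). c9 (ENSDARG00000016319), of the membrane attack complex, rose by 0.45 ± 0.091 (adjusted p = 0.0107), and c3a.6 (ENSDARG00000043719), one of several complement C3 genes, by 0.64 ± 0.13 (adjusted p = 0.0111). serpina1l (ENSDARG00000090850), related to antitrypsin, changed by -0.84 ± 0.18 (adjusted p = 0.0129).

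Immediate-early genes, which cells switch on within minutes of a stimulus, had the largest share called among the lists of at least 15 tested genes. Of 28 in the AP-1 and immediate-early list 9 rose and 1 fell (35.7% called, median 0.341). JUNB (ENSDARG00000074378), an AP-1 subunit, was at 10.8, 13.4, 9.97 and 13.7 CPM in WT, 61.9, 42.7, 36.9 and 78.4 CPM in the yap mutant and 99.7, 124, 139 and 126 CPM in the yap taz mutant (1.15 ± 0.18, adjusted p = 0.00219). The yap mutant was already above WT in every library, and the double mutant above the yap mutant. Its second copy (ENSDARG00000104773) went from 61.3 to 112 CPM to 183 to 211 CPM (1.09 ± 0.16, adjusted p = 0.00142). JUN (ENSDARG00000043531), the partner subunit, was at 146, 126, 112 and 122 CPM and 194, 203, 213 and 204 CPM in the mutants (0.69 ± 0.079, adjusted p = 0.000296) against 81.1 to 86.9 CPM in WT, again as 3 separate ranges. ATF3 (ENSDARG00000007823), a stress-induced member of the same family, was at 48.3, 30.2, 20.7 and 38.5 CPM and then 64.7, 61.8, 76.9 and 75.7 CPM (1.02 ± 0.17, adjusted p = 0.00337), from 9.23 to 10.7 CPM in WT. SOCS3 (ENSDARG00000026611), the feedback inhibitor of cytokine signalling, stood at 16.7 to 19 CPM, 76.1 to 110.5 CPM and 126 to 169 CPM over the genotypes (0.68 ± 0.12 between the mutants, adjusted p = 0.00408). The one that fell was klf2a (ENSDARG00000042667), a transcription factor induced by blood flow (-1.02 ± 0.23, adjusted p = 0.0173). The call on klf2a was lost without yap mutant library 3 or yap taz mutant library 2 (adjusted p = 0.0543 to 0.0583).

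Some inflammatory and phagocyte genes were higher as well. In the macrophage list 6 of 27 rose and 0 fell (22.2% called, median 0.586), and the count was 10 without yap mutant library 4 or yap taz mutant library 3. IRF8 (ENSDARG00000056407), the transcription factor that macrophages need to form, was at 3.35, 5.07, 3.33 and 6.36 CPM in the yap mutant and 8.95, 10.1, 7.39 and 10.7 CPM in the yap taz mutant (1.04 ± 0.21, adjusted p = 0.0113). MPEG1 (ENSDARG00000055290), a pore-forming protein of macrophages, was at 9.07, 13.4, 9.35 and 18.7 CPM and 25.8, 21.9, 21 and 27.5 CPM (0.93 ± 0.19, adjusted p = 0.0118). For both genes yap mutant 4 was the highest library of its genotype and still below the lowest double mutant library. A second gene named MPEG1 (ENSDARG00000043093) did not pass the test (0.011 ± 0.19, adjusted p = 0.984), and the summed level of the list was 1240 to 1790 CPM over the yap mutant libraries and 1710 to 3100 CPM over the double mutant libraries, ranges that overlap. The part of macrophage number in the other inflammatory results was not tested.

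Among 23 inflammatory cytokine genes 4 rose and 0 fell (17.4% called, median 0.516), a count that was 0 without yap mutant library 2 or yap taz mutant library 2 or 4, 1 without yap mutant library 3 or yap taz mutant library 3, 2 without WT library 1 or yap mutant library 1 and 9 without yap mutant library 4. il1b (ENSDARG00000098700), interleukin 1 beta, was at 0.779, 0.395, 0.125 and 0.337 CPM in WT, 3.97, 2.66, 1.02 and 7.76 CPM in the yap mutant and 12.7, 14.7, 7.39 and 16.1 CPM in the yap taz mutant (1.72 ± 0.38, adjusted p = 0.0155). Yap mutant 4 lay above yap taz mutant 3, so the mutants overlapped. Without the yap taz mutant libraries, where it was high, il1b would not have passed the read filter. Its place among the 4 is therefore no support for a rise of the list. The call on il1b was lost without yap mutant library 2 or yap taz mutant library 2 or 4 (adjusted p = 0.0542 to 0.0558). The gene mmp13a (ENSDARG00000012395), a collagenase, is in the neutrophil and matrix protease list, in which 3 of 17 rose and 0 fell (17.6% called), or 1 without yap mutant library 2 or 3 or yap taz mutant library 2 or 4. It was at 2.81 to 4.24 CPM in WT, 14.3 to 34.9 CPM in the yap mutant and 25.9 to 87.4 CPM in the yap taz mutant, where yap taz mutant 3 overlapped with the yap mutant (1.42 ± 0.32, adjusted p = 0.0186). The call on mmp13a was lost without yap mutant library 2 or 3 or yap taz mutant library 2 or 4 (adjusted p = 0.059 to 0.0708). npsn (ENSDARG00000010423), nephrosin, a protease of neutrophils, was at 28.4, 23.3, 22.2 and 23.1 CPM and 45.1, 41.1, 37.3 and 52.8 CPM (0.86 ± 0.11, adjusted p = 0.000829). Lysosomal genes showed 5 of 50 higher and 0 lower (10% called, median 0.158), a count of 1 without yap mutant library 2 or yap taz mutant library 2 and 2 without yap mutant library 3. Of these ctsla (ENSDARG00000007836), a cathepsin L also expressed in yolk-facing cells, stood at 1084 to 1204 CPM in WT, 1582 to 2219 CPM in the yap mutant and 2640.3 to 3046 CPM in the yap taz mutant (0.52 ± 0.092, adjusted p = 0.0041).

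Genes of the p53 response and of apoptosis had 7 of 38 higher and 0 lower (18.4% called), and 37 of the 38 had a log2 fold change above 0 (median 0.253). mcl1b (ENSDARG00000008363), a survival factor of the Bcl-2 family, was at 56.3, 69, 62.6 and 48.8 CPM in WT, 99, 90.9, 84.8 and 95.1 CPM in the yap mutant and 133, 189, 162 and 176 CPM in the yap taz mutant (0.84 ± 0.11, adjusted p = 0.000901). bbc3 (ENSDARG00000069282), which encodes the death-promoting protein Puma, was at 14.9, 13.3, 8.71 and 11.7 CPM and 20.7, 24.2, 18.5 and 21.3 CPM (0.80 ± 0.15, adjusted p = 0.00562). In both genes the mutants were apart, although mcl1b and bbc3 act in opposite directions on cell death. rps27l (ENSDARG00000100513), a p53-induced ribosomal protein relative, rose by 0.67 ± 0.12 (adjusted p = 0.00388). The interferon-stimulated gene isg15 (ENSDARG00000086374), also in this list, went from 1.01 to 2.36 CPM to 3.63 to 7.10 CPM (1.78 ± 0.31, adjusted p = 0.0041). It passed the read filter only through the yap taz mutant libraries, where it was high. Its place among the 7 is therefore no support for a rise of the list.

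In the integrated stress response list 5 of 37 rose and 2 fell (18.9% called, median 0.0986), with a risen count of 3 without yap taz mutant library 2. CEBPB (ENSDARG00000042725), a transcription factor of stress and of the acute phase, was at 38.4, 53.2, 34.8 and 41.7 CPM in WT, 135, 122, 80.3 and 184 CPM in the yap mutant and 217, 281, 276 and 318 CPM in the yap taz mutant (1.07 ± 0.19, adjusted p = 0.00436). Its yap mutant libraries spread over more than 2-fold, with yap mutant 4 the highest, and remained below the double mutants. TRIB3 (ENSDARG00000016200), a stress-induced pseudokinase, rose by 0.55 ± 0.11 (adjusted p = 0.0113).

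**Figure D4:**
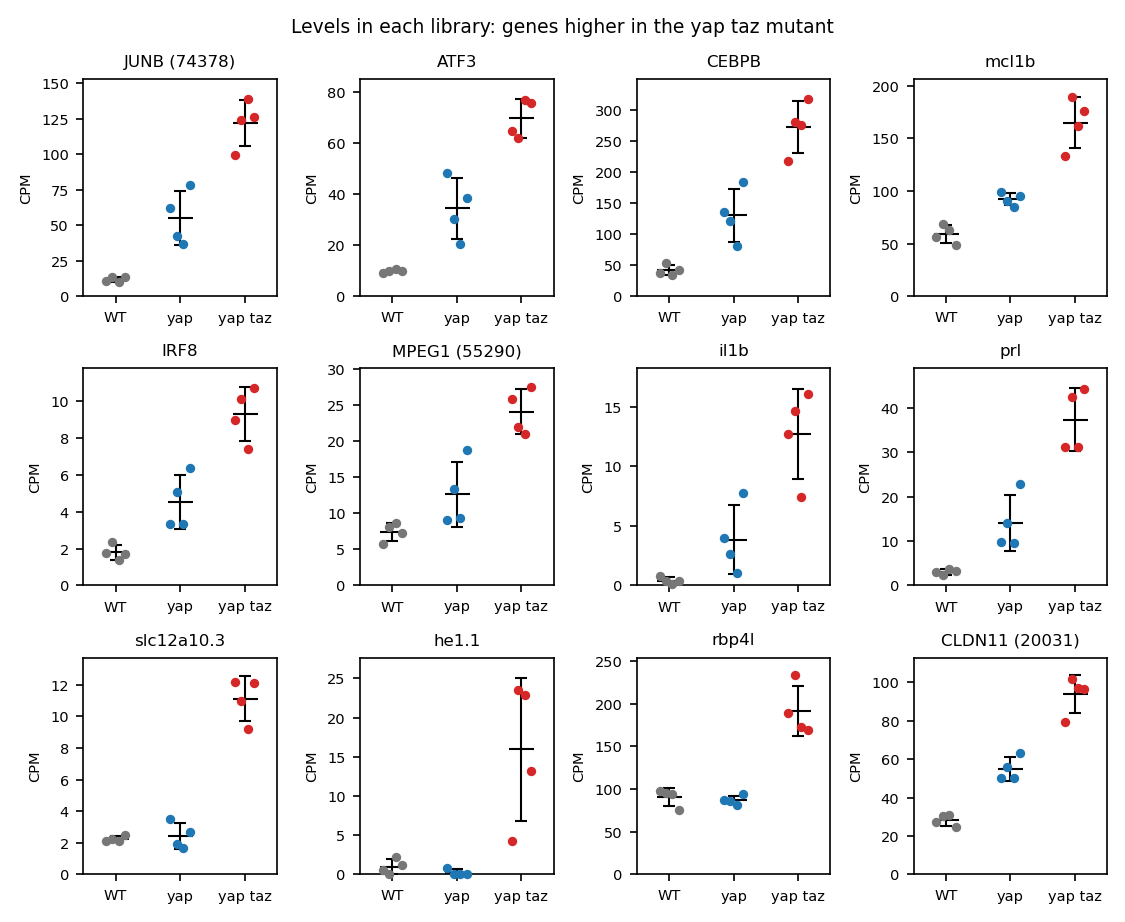
Each panel is 1 gene, with CPM on the y axis from 0, 1 point per library, and the mean ± SD of the 4 libraries of each genotype in black (WT grey, yap mutant blue, yap taz mutant red). A number after a symbol gives the last digits of the gene identifier. JUNB is ENSDARG00000074378 and CLDN11 is ENSDARG00000020031. Every gene shown other than slc12a10.3, he1.1 and rbp4l already stood above WT in all yap mutant libraries.

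Ion and water balance genes changed in both directions. In the ionocyte and ion transport list 3 of 42 rose and 4 fell (16.7% called, median 0.0563), a risen count of 7 without yap mutant library 4. Those that fell included SLC4A4 (-0.86 ± 0.10) and SLC4A1 (-1.03 ± 0.15), which are given below with the kidney and red cell genes. slc12a10.3 (ENSDARG00000055253), a sodium-chloride cotransporter of fish ionocytes, was at 3.48, 1.90, 1.66 and 2.67 CPM in the yap mutant and 12.2, 11, 9.17 and 12.1 CPM in the yap taz mutant (2.19 ± 0.20, adjusted p = 5.2e-05), against 2.11 to 2.47 CPM in WT. WT and yap mutant overlapped and the double mutant stood clear of both. atp1a1a.5 (ENSDARG00000040252), an alpha subunit of the sodium pump, was at 9.32, 11.5, 12 and 16.8 CPM and 26.5, 24.6, 32.4 and 35.1 CPM in the mutants (1.25 ± 0.16, adjusted p = 0.000598). prl (ENSDARG00000037946), prolactin, the pituitary hormone of ion retention in fish, was at 3.00, 2.24, 3.74 and 3.14 CPM in WT, 9.81, 14.1, 9.47 and 22.9 CPM in the yap mutant and 31.2, 42.6, 31.2 and 44.4 CPM in the yap taz mutant (1.41 ± 0.22, adjusted p = 0.00218). Its 3 ranges were separate, with yap mutant 4 the highest of its group. Sodium pump and cotransporter genes of this kind lie in families of similar copies, so reads may be shared.

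Called kidney genes were mostly lower, with 6 of 32 lower and 1 higher (21.9% called), although the list median of -0.0107 was near that of all genes and the higher count was 1 to 4 over the changes tried, reaching 4 without yap mutant library 4. podxl (ENSDARG00000031228), the podocyte surface protein podocalyxin, was at 104, 104, 87.4 and 111 CPM and 56.3, 53, 63.4 and 50.3 CPM in the mutants (-0.87 ± 0.096, adjusted p = 0.000217). WT libraries, at 82.2 to 102 CPM, overlapped with the yap mutant. NPHS1 (ENSDARG00000060758), nephrin of the filtration slits, was low in every library, at 3.94 to 5.20 CPM and 1.92 to 3.10 CPM (-0.96 ± 0.20, adjusted p = 0.0129). SLC4A4 (ENSDARG00000013730), a sodium bicarbonate cotransporter also counted in the ionocyte list, was at 89.8, 121, 110.1 and 101 CPM and 64.9, 51.9, 51.7 and 64.1 CPM (-0.86 ± 0.10, adjusted p = 0.000296). The potassium channel gene KCNJ1 (ENSDARG00000090866) went from 3.18 to 5.63 CPM to 0.242 to 1.18 CPM (-2.50 ± 0.41, adjusted p = 0.0027). The phosphate transporter SLC20A1 (ENSDARG00000020114) was the one that rose (0.75 ± 0.15, adjusted p = 0.00999). In RNA of whole larvae, the organ or cells in which these genes changed were not measured.

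Hatching gland cells release the enzymes that open the egg envelope. Of 9 listed genes of the gland, 6 had enough reads to be tested, and 4 of these rose and 0 fell (66.7% called, median 0.575). Among the 4, he1.1 and he1.2 passed the read filter only through the yap taz mutant libraries, where they were high. The share called therefore does not show that the gland as a whole changed. he1.1 (ENSDARG00000023656), a hatching enzyme, had reads in 1 yap mutant library (0.870 CPM in yap mutant 1) and a count of 0 in the other 3, which allows up to 0.38 to 0.384 CPM, while the yap taz mutant libraries held 4.24, 23.5, 22.9 and 13.2 CPM (adjusted p = 0.000842). he1.2 (ENSDARG00000019122) likewise had 0.621 CPM in yap mutant 1, a count of 0 in yap mutant 2, 3 and 4, and 3.27, 9.20, 6.95 and 4.05 CPM in the yap taz mutant (adjusted p = 0.000901). Every double mutant library was above every other library, WT included, where he1.1 reached at most 2.24 CPM. The he1 genes are near copies of each other, so the division of reads between them is uncertain, and with so few reads in the yap mutant no fold is given. The other members called were npsn, described above as a protease of neutrophils, and XBP1 (ENSDARG00000035622), a transcription factor of secretory cells (0.29 ± 0.074, adjusted p = 0.035). The call on XBP1 was lost without yap mutant library 1, 2 or 3 or yap taz mutant library 1, 2, 3 or 4 (adjusted p = 0.0644 to 0.106).

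Barrier genes of the epidermis and other epithelia changed one by one. Of 33 claudins 3 rose and 0 fell (9.09% called, median 0.125), a count of 5 without yap mutant library 4 or with DESeq2. CLDN11 (ENSDARG00000020031) was at 27.4, 30.5, 30.9 and 24.6 CPM in WT, 50.3, 55.9, 50.2 and 63.1 CPM in the yap mutant and 79.5, 102, 97.3 and 96.4 CPM in the yap taz mutant (0.77 ± 0.10, adjusted p = 0.000775). cldnb (ENSDARG00000009544), a claudin of the lateral line and skin, rose by 0.70 ± 0.14 (adjusted p = 0.0104), and CLDN5 (ENSDARG00000014059) by 0.49 ± 0.093 (adjusted p = 0.00691). cdh1 (ENSDARG00000102750), E-cadherin, the adhesion protein of epithelia, was at 109, 100.4, 83.4 and 117 CPM and 154, 160.1, 159 and 164 CPM in the mutants (0.64 ± 0.11, adjusted p = 0.0031), with yap mutant values above WT (63.9 to 86.9 CPM) in all but 1 library. The transglutaminase relative tgm1l1 (ENSDARG00000102106) went down instead, from 37 to 42.1 CPM to 19.98 to 26 CPM (-0.76 ± 0.089, adjusted p = 0.000296). The keratin gene krt4 was not called (0.13 ± 0.16, adjusted p = 0.739).

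Glucose handling genes included some of the clearer metabolic differences. Of 19 glucose transporter genes 3 rose and 2 fell (26.3% called, median 0.133), a risen count of 1 without yap mutant library 1, 2 or 3 or yap taz mutant library 2 or 4. One of the genes for the main transporter SLC2A1 (ENSDARG00000001437) was at 9.34, 7.77, 7.73 and 8.98 CPM in WT, 4.60, 5.20, 4.48 and 2.80 CPM in the yap mutant and 1.94, 1.05, 1.33 and 2.16 CPM in the yap taz mutant (-1.38 ± 0.25, adjusted p = 0.00562). The genotypes lay in that descending order without overlap. The other (ENSDARG00000007412) was at 17 to 25.7 CPM in WT, 26.5 to 38.8 CPM in the yap mutant and 16.2 to 29 CPM in the yap taz mutant and was not called (-0.41 ± 0.17, adjusted p = 0.205). slc2a15b (ENSDARG00000053269), which pigment cells express, changed by -1.0 ± 0.19 (adjusted p = 0.00801). SLC2A5 (ENSDARG00000077875), the fructose transporter, was at 4.84, 5.07, 3.46 and 3.05 CPM and 10.9, 9.86, 11.4 and 13 CPM (1.45 ± 0.21, adjusted p = 0.00144), and the yap mutant overlapped with WT (2.70 to 5.79 CPM). The other 2 that rose, SLC2A6 (ENSDARG00000058731) (1.35 ± 0.32, adjusted p = 0.0233) and slc2a11a (ENSDARG00000053961) (1.01 ± 0.26, adjusted p = 0.0335), were low in level. The call on SLC2A6 was lost without yap mutant library 1, 2 or 3 or yap taz mutant library 2 or 4 (adjusted p = 0.0521 to 0.0825). The call on slc2a11a was lost without yap mutant library 1, 2 or 3 or yap taz mutant library 1, 2, 3 or 4 (adjusted p = 0.0659 to 0.107).

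In the glycolysis list 2 of 49 rose and 3 fell (10.2% called, median -0.0321), and in the gluconeogenesis and glycogen list 1 of 26 rose and 3 fell (15.4% called, median -0.107). The risen count of the glycolysis list was 1 to 4 over the changes tried, reaching 4 without yap taz mutant library 1 or with DESeq2. With the replicate number as a block it was 6. The risen count of the gluconeogenesis and glycogen list was 1 to 4 over the changes tried, reaching 4 with DESeq2. PCK1 (ENSDARG00000013522), which commits carbon to new glucose, was at 105, 125, 156 and 152 CPM in WT, 353, 364, 289 and 333 CPM in the yap mutant and 533, 681, 693 and 614 CPM in the yap taz mutant (0.91 ± 0.12, adjusted p = 0.000783). The yap mutant stood between WT and the double mutant, and no genotypes overlapped. PDK2 (ENSDARG00000059054), a pyruvate dehydrogenase kinase, was at 36.4, 35.1, 30.6 and 24.5 CPM and 54.1, 82.9, 55.1 and 71.5 CPM in the mutants (1.06 ± 0.21, adjusted p = 0.0102). PFKFB3 (ENSDARG00000001953), whose product activates phosphofructokinase, rose by 0.74 ± 0.16 (adjusted p = 0.0143). The call on PFKFB3 was lost without yap mutant library 2 or yap taz mutant library 2 (adjusted p = 0.0537 to 0.0598). Lactate dehydrogenase A (LDHA, ENSDARG00000101251) was at 364, 398, 445 and 304 CPM and 291, 264, 282 and 262 CPM (-0.46 ± 0.097, adjusted p = 0.0129), lower in every double mutant library. GPI (ENSDARG00000103826), an isomerase of glycolysis, was at 20.2 to 45.7 CPM in the yap mutant and 6.05 to 8.77 CPM in the yap taz mutant (-2.06 ± 0.42, adjusted p = 0.0111). WT libraries held 19, 33, 27.9 and 4.15 CPM, so that WT 4 lay below every double mutant library. The call on GPI was lost with limma-voom (adjusted p = 0.0527). The glycogen genes GYS1 (ENSDARG00000016875), a glycogen synthase, and UGP2 (ENSDARG00000005578), which makes its substrate, changed by -0.53 ± 0.091 (adjusted p = 0.00373) and -0.83 ± 0.15 (adjusted p = 0.00573), and pyruvate carboxylase, PC (ENSDARG00000051939), changed by -0.44 ± 0.083 (adjusted p = 0.00691).

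**Figure D5:**
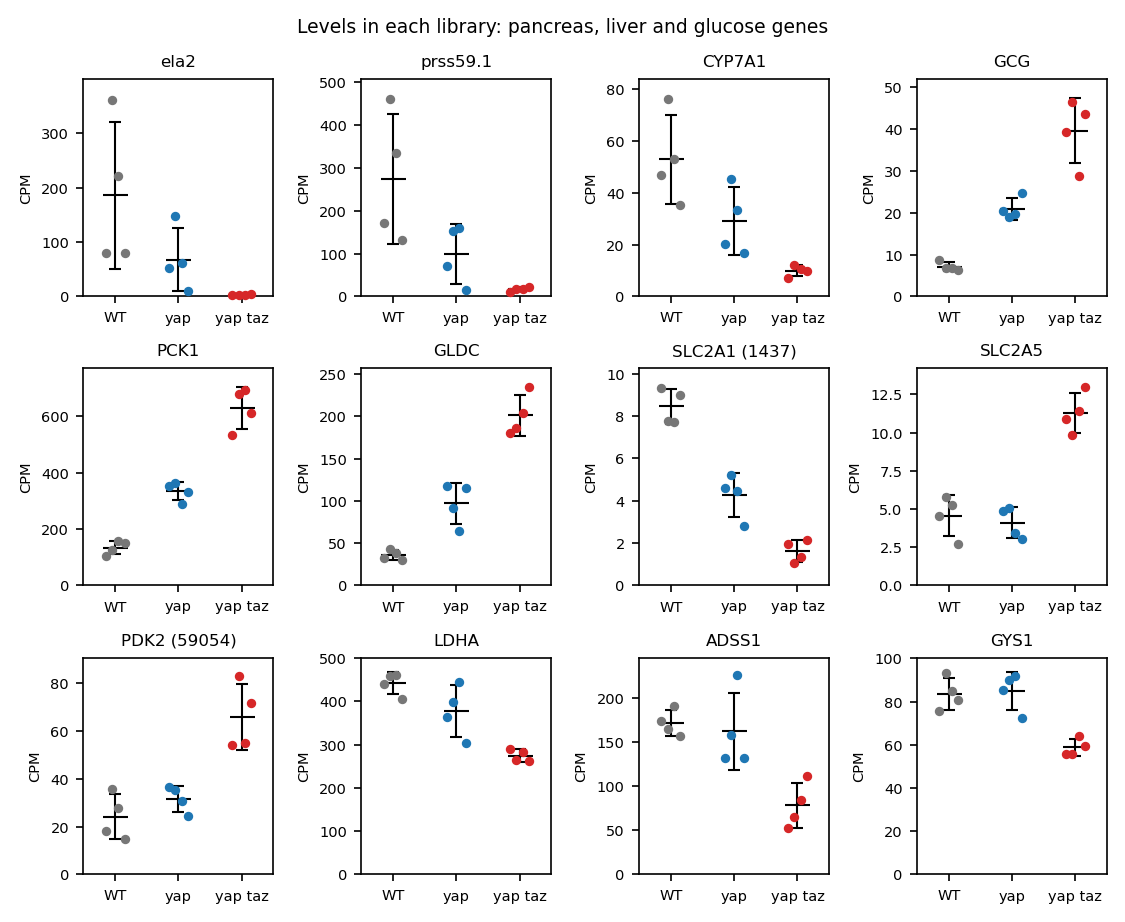
Each panel is 1 gene, with CPM on the y axis from 0, 1 point per library, and the mean ± SD of the 4 libraries of each genotype in black (WT grey, yap mutant blue, yap taz mutant red). A number after a symbol gives the last digits of the gene identifier. SLC2A1 is ENSDARG00000001437. The elastase and trypsin genes (ela2, prss59.1) vary several-fold within WT and within the yap mutant, whereas PCK1, GLDC and GCG are lowest in WT, higher in every yap mutant library and highest in the yap taz mutant.

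Few nucleotide synthesis genes were called. Of 18 purine synthesis genes 1 fell and 0 rose (5.56% called, median 0.00565), and of 23 pyrimidine and deoxynucleotide genes 1 rose and 0 fell (4.35% called, median -0.0782), shares near the 4.18% of all genes. The purine gene was ADSS1 (ENSDARG00000099517), the muscle form of adenylosuccinate synthase, at 132, 158, 225 and 132 CPM in the yap mutant and 52.2, 64.9, 84.1 and 111 CPM in the yap taz mutant (-1.06 ± 0.20, adjusted p = 0.00628). The double mutant values were spread more than 2-fold, with yap taz mutant 4 the nearest to the yap mutant. The pyrimidine gene was CTPS1 (ENSDARG00000098386), a CTP synthase (0.50 ± 0.12, adjusted p = 0.0277). The call on CTPS1 was lost without yap mutant library 1, 2 or 3 or yap taz mutant library 2, 3 or 4 (adjusted p = 0.0632 to 0.0965). Serine, glycine and one-carbon genes had 4 of 30 higher and 2 lower (20% called, median -0.115). The risen count was 2 without yap mutant library 2 or 3 or yap taz mutant library 2, 3 or 4, and the lower count was 0 to 3 over the changes tried, reaching 3 without WT library 2 or 4, with upper-quartile scaling or with DESeq2. GLDC (ENSDARG00000035120), which cleaves glycine, was at 32.4, 42.8, 37.9 and 30.1 CPM in WT, 117, 91.9, 64.8 and 115 CPM in the yap mutant and 180.1, 186, 204 and 234 CPM in the yap taz mutant (1.05 ± 0.16, adjusted p = 0.00147), with no overlap between any genotypes.

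Genes of cell division had few calls, a number that depended on the libraries used, and nearly all were below 0 in fold change. Of 57 mitosis genes 2 fell and 0 rose (3.51% called, median -0.243), with 3 of 57 above 0, and of 58 DNA replication genes 5 fell and 0 rose (8.62% called, median -0.212), with 5 of 58 above 0. The mitosis count was 1 to 8 over the changes tried, reaching 8 without yap mutant library 4. The replication count was 1 without yap mutant library 3 or yap taz mutant library 1 or 2, 2 without yap taz mutant library 3 or 4, 3 without yap mutant library 1, with the 8 mutant libraries alone or with limma-voom and 9 without yap mutant library 4. CCNB1 (ENSDARG00000051923), the mitotic cyclin B1, was at 55.8, 52.5, 49.6 and 47.7 CPM in WT, 39.9, 38.4, 48.4 and 33.1 CPM in the yap mutant and 28.4, 26.5, 24.4 and 28.9 CPM in the yap taz mutant (-0.56 ± 0.11, adjusted p = 0.00752). DNMT1 (ENSDARG00000030756), the maintenance DNA methyltransferase, changed by -0.43 ± 0.090 (adjusted p = 0.0123), and MCM3 (ENSDARG00000024204), a subunit of the replicative helicase, by -0.47 ± 0.11 (adjusted p = 0.0267). The call on MCM3 was lost without yap mutant library 3 or yap taz mutant library 1, 2 or 3 (adjusted p = 0.0507 to 0.0945).

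The 13 respiratory chain genes of the mitochondrial genome were all below 0 on the log2 scale (median -0.313), 4 of them called lower (30.8%), a count that was 0 without yap mutant library 2 or yap taz mutant library 2, 2 without yap taz mutant library 1, 3 or 4, 7 without WT library 2 or with no filter and 8 with upper-quartile scaling, with the 8 mutant libraries alone or with DESeq2. The share of all counts that mapped to mitochondrial genes of this kind was 2.96% to 3.48% in the yap mutant libraries and 2.55% to 2.70% in the yap taz mutant libraries. None of the 55 tested nuclear genes of the respiratory chain was called by edgeR, with a median of -0.137, although 11 had an unadjusted p under 0.05. The lower count was 0 to 4 over the changes tried, reaching 4 without yap mutant library 4, 3 with DESeq2 and 0 with limma-voom. With the replicate number as a block it was 6. mt-nd4l (ENSDARG00000063916), a subunit of complex I, was at 140.4, 165, 147 and 137 CPM and 121, 102, 116 and 116 CPM in the mutants (-0.37 ± 0.078, adjusted p = 0.0129). The call on mt-nd4l was lost without yap mutant library 2 or yap taz mutant library 2 (adjusted p = 0.0513 to 0.0525).

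Some genes of blood and vessels were called. Among the 27 red cell genes tested, 4 had a log2 fold change above 0. Of 27 red cell genes 1 rose and 3 fell (14.8% called, median -0.237), a fallen count of 5 with no filter or with DESeq2 and 6 without WT library 4, and of 52 endothelial and lymphatic genes 2 rose and 2 fell (7.69% called, median -0.0128). RHAG (ENSDARG00000019253), a membrane protein of red cells, was at 260.4, 254, 234 and 288 CPM in the yap mutant and 158, 168, 210.2 and 155 CPM in the yap taz mutant (-0.59 ± 0.10, adjusted p = 0.00403). SLC4A1 (ENSDARG00000012881), the anion exchanger band 3, changed by -1.03 ± 0.15 (adjusted p = 0.00142), and hbae5 (ENSDARG00000045142), a globin, by -0.99 ± 0.19 (adjusted p = 0.00713). The globin hbae3 (ENSDARG00000079305) was not called (-0.0087 ± 0.16, adjusted p = 0.985). Among listed vessel genes kdrl (ENSDARG00000105215), a receptor for vascular endothelial growth factor, was at 33.3, 37.2, 35.5 and 32.1 CPM in WT, 37, 38.1, 39.6 and 45.8 CPM in the yap mutant and 26.5, 28.3, 28.1 and 27.8 CPM in the yap taz mutant (-0.54 ± 0.086, adjusted p = 0.00242). Every double mutant library was below every library of the other genotypes. The water channel gene AQP1 (ENSDARG00000023713) changed by -0.47 ± 0.077 (adjusted p = 0.00263). The endothelial and lymphatic genes that rose included CLDN5 (0.49 ± 0.093), given above with the claudins.

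Some of the largest differences lay in genes not described so far. jac8 (ENSDARG00000076958) was at 0.497, 0.507, 0.256 and 0.763 CPM in the yap mutant and 5.69, 9.59, 8.72 and 8.91 CPM in the yap taz mutant (adjusted p = 3.91e-05), against at most 0.395 CPM in WT. It passed the read filter only through the yap taz mutant libraries, and with so few reads in the yap mutant no fold is given for it. lipib (ENSDARG00000005332), a lipase gene, was at 2.61, 2.28, 2.56 and 2.42 CPM and 7.14, 10.6, 5.17 and 7.96 CPM (1.65 ± 0.22, adjusted p = 0.000842). Both were clear of the yap mutant in every library. bcan (ENSDARG00000099412), the brain proteoglycan brevican, was at 34.4, 35, 77.8 and 31.9 CPM in WT, 27.7, 41.4, 70.2 and 28.2 CPM in the yap mutant and 190.3, 143, 171 and 83.4 CPM in the yap taz mutant (1.81 ± 0.33, adjusted p = 0.00479). The third library was the highest in WT and in the yap mutant, and yap taz mutant 4 was the lowest of its group. CETP (ENSDARG00000030872), a plasma lipid transfer protein, rose by 1.26 ± 0.19 (adjusted p = 0.00147), and NTN4 (ENSDARG00000102066), a netrin of basement membranes, by 1.41 ± 0.24 (adjusted p = 0.00373). In the other direction sftpba (ENSDARG00000094708), a surfactant protein gene of the swim bladder, was at 16.2, 17.2, 12.5 and 17.1 CPM in WT, 6.09, 8.75, 7.68 and 3.81 CPM in the yap mutant and 3.15, 1.31, 0.296 and 0.675 CPM in the yap taz mutant (-2.20 ± 0.40, adjusted p = 0.00514). spice1 (ENSDARG00000004647), a centriole protein, changed by -2.08 ± 0.36 (adjusted p = 0.00406).

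Set against WT, the genes named here took several courses. For RPE65, acta2, JUN and PCK1 the yap mutant stood between WT and the double mutant. For others, MYL7, COL5A2, DCT, TYRP1 and slc12a10.3 among them, the yap mutant overlapped with WT and the double mutant was apart from both. Each of these genes is described from its own library values above, and no count of genes in either class was made, because both contrasts use the same yap mutant libraries. Of 71 lists, 7 had no called member between the mutants: the Hox genes, ribosomal proteins, proteasome, Notch signalling, pentose phosphate, nuclear respiratory chain and germ cell lists. The lower count of Notch signalling was 0 to 4 over the changes tried, reaching 4 without yap mutant library 4, and that of the nuclear respiratory chain is given above. Among 90 neuronal genes 1 was higher and 1 lower (2.22% called, median 0.0312), and among 51 Wnt signalling genes 0 were higher and 1 lower (1.96% called, median -0.0718), shares below that of all genes tested. The higher count of the neuronal genes was 0 to 4 over the changes tried, reaching 4 without yap mutant library 3.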

How the data were processed

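Whole-larva polyadenylated RNA was sequenced in 12 libraries, grouped by the genotype in the sample titles (WT, yap mutant, yap taz mutant, 4 each). The deposited values are whole-number counts of reads per Ensembl gene, not normalized, which the authors made with STAR 2.3.0e and HTSeq 0.6.0 per the submitters' processing notes. The sources used here do not name the genome build, the annotation or the strand setting, so overlapping and antisense genes may share reads and no coordinates are printed. Of 25473 gene identifiers, 22531 have a symbol in the supplied list, and some symbols stand for more than 1 zebrafish gene, hence the identifiers.

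The filter filterByExpr (at least 10 counts, 15 in total) left 19493 genes, scaled by TMM. All 12 libraries entered a quasi-likelihood fit of edgeR 4.0.16 (R 4.3.3) with the genotypes as groups and no block, and the yap taz mutant was tested against the yap mutant, two-sided, with Benjamini-Hochberg adjustment and a threshold of 0.05. Totals of 7028251 to 8657381 counts set the counting error, and a count of 0 allows up to 3 counts, which covers that error only. The spread between libraries of a genotype was larger than counting error alone gives, with a chi-square per gene of 3.35 to 9.93 between pairs. No label says that the 4 libraries of a genotype are separate clutches, so p-values measure the spread between these libraries, which may be technical. The procedure was also run on simulated counts with known changes, whose outcome is not given here. Genes were drawn independently, without shifts of whole libraries, so the simulation cannot address how far the calls depend on single libraries.

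The 71 gene lists (2611 genes matched, 259 in more than 1 list), the comparison and the rule for named genes were chosen with earlier results of these data known, so no list is independent evidence. Lists are described by counts and medians and were not tested as sets. Named genes are YAP1 and WWTR1; among called genes with mean log2 CPM of at least 1 (prior count 2) and no overlap, the 12 largest and 12 smallest fold changes; up to 4 called members of each list by smallest p; and members of the target, Hippo, glucose transporter, glycolysis, purine and pyrimidine lists. The text gives part of them, without clones and unnamed loci, and some genes are not reported here. TNNT1, elnb, TNC (ENSDARG00000078362), KERA, vcana, CCN5, GNAT1, PDE6B (ENSDARG00000000380), NPHS1, SOCS3 (ENSDARG00000026611), GNAT2, ins, MPEG1 (ENSDARG00000043093), krt4, hbae3, fabp10a and klf2a fall outside the rule and were chosen after their values were seen. Alternatives were RLE or upper-quartile scaling, no filter, a filter of 1 CPM in 4 libraries, a fit of the 8 mutant libraries, a block for the replicate number, the omission of each library, limma-voom (limma 3.58.1), DESeq2 1.42.0, and a test against a fold of 1.5.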

Additional observations from a re-analysis of the deposited data

Results flagged for a closer look

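In 444 groups of 4 libraries (3 genotypes of each gene named), the highest or lowest library was set apart where its gap to the next, over the range of the group, passed Dixon's 95% value for a group of 4. Chance alone sets apart about 1 group in 20, and 27 values were set apart.

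In the yap taz mutant, GADD45B (ENSDARG00000013576) was at 25 CPM in yap taz mutant 4 and 21.6 to 21.9 CPM in the other 3 libraries. TNNT1 (ENSDARG00000037954) was at 7.29 CPM in yap taz mutant 4 and 9.76 to 10.2 CPM in the other 3 libraries. MIP (ENSDARG00000037285) was at 39.7 CPM in yap taz mutant 2 and 61.4 to 63.3 CPM in the other 3 libraries. MIP (ENSDARG00000013963) was at 49.9 CPM in yap taz mutant 2 and 74.5 to 79.5 CPM in the other 3 libraries. ctsla (ENSDARG00000007836) was at 3046 CPM in yap taz mutant 2 and 2640.3 to 2684 CPM in the other 3 libraries. slc2a15b (ENSDARG00000053269) was at 3.99 CPM in yap taz mutant 3 and 3.27 to 3.37 CPM in the other 3 libraries. CCN1 (ENSDARG00000023062) was at 64.2 CPM in yap taz mutant 3 and 42.8 to 44.7 CPM in the other 3 libraries. MPEG1 (ENSDARG00000043093) was at 21 CPM in yap taz mutant 2 and 16.1 to 16.4 CPM in the other 3 libraries.

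In the yap mutant, MYH11 (ENSDARG00000009782) was at 80.9 CPM in yap mutant 2 and 67.5 to 69.1 CPM in the other 3 libraries. vcanb (ENSDARG00000009401) was at 119 CPM in yap mutant 3 and 90.1 to 94.8 CPM in the other 3 libraries. PROM1 (ENSDARG00000034007) was at 70.1 CPM in yap mutant 4 and 54.2 to 56.8 CPM in the other 3 libraries. GNAT1 (ENSDARG00000044199) was at 50.1 CPM in yap mutant 1 and 61 to 61.5 CPM in the other 3 libraries. he1.1 (ENSDARG00000023656) was at 0.870 CPM in yap mutant 1 and 0 CPM in the other 3 libraries. he1.2 (ENSDARG00000019122) was at 0.621 CPM in yap mutant 1 and 0 CPM in the other 3 libraries. CCN1 (ENSDARG00000023062) was at 51.4 CPM in yap mutant 4 and 35.1 to 36.2 CPM in the other 3 libraries.

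In WT, MYLK (ENSDARG00000004753) was at 9.97 CPM in WT 3 and 15 to 15.8 CPM in the other 3 libraries. CCN5 (ENSDARG00000077882) was at 4.24 CPM in WT 3 and 2.45 to 2.58 CPM in the other 3 libraries. MIP (ENSDARG00000037285) was at 124 CPM in WT 1 and 152 to 153 CPM in the other 3 libraries. rbp4l (ENSDARG00000044684) was at 74.9 CPM in WT 4 and 93.6 to 97.2 CPM in the other 3 libraries. GNAT1 (ENSDARG00000044199) was at 68.5 CPM in WT 4 and 105 to 106 CPM in the other 3 libraries. PDE6B (ENSDARG00000000380) was at 13.8 CPM in WT 4 and 17.3 to 18 CPM in the other 3 libraries. JUNB (ENSDARG00000104773) was at 38 CPM in WT 2 and 25.4 to 26.9 CPM in the other 3 libraries. SOCS3 (ENSDARG00000026611) was at 19 CPM in WT 2 and 16.7 to 17 CPM in the other 3 libraries. TRIB3 (ENSDARG00000016200) was at 33.5 CPM in WT 3 and 27.3 to 28.3 CPM in the other 3 libraries. isg15 (ENSDARG00000086374) was at 0.111 CPM in WT 1 and 0.499 to 0.561 CPM in the other 3 libraries. DNMT1 (ENSDARG00000030756) was at 69.1 CPM in WT 4 and 82.7 to 84 CPM in the other 3 libraries. bcan (ENSDARG00000099412) was at 77.8 CPM in WT 3 and 31.9 to 35 CPM in the other 3 libraries.

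No cause of these values was tested. Where leaving out a library ended the call of a gene, that is given with the gene. CCN1 and MPEG1 (ENSDARG00000043093) were not called with all libraries.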

How the results depend on the processing

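The comparison called 814 genes. With the replicate number as a block it called 1443 (645 higher, 798 lower), and against a minimum fold of 1.5 it called 22 (11 higher, 11 lower). Leaving out 1 library at a time gave 441 to 1087 genes, with 194 to 497 higher and 247 to 590 lower. Under the other alternatives the count was 745 (limma-voom) to 1071 (DESeq2), within 1.5 times. Of the 814 genes, 336 were called in all 12 fits that lacked a library, 331 under every alternative other than the minimum fold, and 813 with the block. The titles do not say that replicate numbers pair the libraries. Same-numbered mutant libraries had deviations that correlated at 0.0512, -0.00323, 0.0648 and 0.0206, against -0.0848 to 0.0647 for unlike numbers. Whether libraries of the same number share a clutch or batch was not tested. With the block on the 8 mutant libraries alone 1006 genes were called and AMOTL2 (adjusted p = 0.0699) and XBP1 (adjusted p = 0.0581) were not.

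Of the 135 called genes named here, 103 were called under every alternative other than the minimum fold and 12 under all of them, and none changed direction. Fold changes near 0 of uncalled genes did. The second ANKRD1 (ENSDARG00000075263) ranged from -0.36 to 0.12 with 1 library left out, GNAT2 from -0.044 to 0.17, the second MPEG1 (ENSDARG00000043093) from -0.10 to 0.16, krt4 from -0.093 to 0.24 and hbae3 from -0.11 to 0.070. With upper-quartile scaling that MPEG1 gene was at -0.0052, and with the block hbae3 was at 0.00033. The cause of these shifts was not tested. No scaling moved the median of all genes by more than 0.1. Genes near 1 CPM rest on few reads.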
